A study of Mus musculus with 2 samples.

Results

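The complement and coagulation factors are plasma proteins made largely by the liver, and 43 genes of this kind, chosen by name with the serpins left out, were read on arrays of mature hepatocytes (MHs) and Sox9+EpCAM- cells. All 43 are named on the array, among 30153 gene names in all, and 62 probes read them. The genes were listed by name, and the rule uses no measured value. 20 of the genes belong to the complement system and 23 to clotting, its inhibition and fibrinolysis.

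The study asked whether hepatocytes that gain Sox9 in chronic injury are a mixed population, and compared their expression profile with that of MHs to that end. MHs came from healthy livers of Sox9-EGFP reporter mice, in which GFP reports Sox9, and were collected after collagenase perfusion by low-speed and Percoll gradient centrifugation. Sox9+EpCAM- cells, also called biphenotypic hepatocytes, were sorted by FACS as GFP+EpCAM- cells from Sox9-EGFP mice fed a diet with DDC, which injures bile ducts over time. A time course of such mice in the study gated on CD31-CD45- cells first, which removes endothelial cells and leukocytes, and whether the cells of the array were gated in this way is not stated, while MHs were not sorted. Each group is 1 array, hybridised with Cy3-labelled RNA, and the number, strain and age of the mice behind it are not given in the sources used here. The length of feeding is stated for a PCR of the same cell populations and not for the arrays. With 1 array a group no value has a replicate, so no difference has an error or a test, and sizes are given in place of p-values. The number of arrays limits the precision.

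Complement is a cascade of blood proteases that is set off by antibody (the classical pathway), by mannose-binding lectin on sugars (the lectin pathway) or by slow activation on surfaces (the alternative pathway). All routes cleave C3 and can end in a pore made of the terminal components. Clotting is another cascade of proteases, set off by tissue factor or by contact with a surface, which ends when thrombin turns fibrinogen into fibrin. Plasmin, made from plasminogen, dissolves the clot. Hepatocytes secrete most of these proteins, while tissue factor, factor VIII, von Willebrand factor, factor XIII A chain, tissue factor pathway inhibitor, factor D and properdin have main sources outside hepatocytes.

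The intensity of a probe is given here as relative signal, which is its intensity divided by the 75th percentile of its array, so that a relative signal of 1 is that percentile. This percentile was an intensity of 741 in MHs and 1110 in Sox9+EpCAM- cells, and 27523 and 32158 of 43020 spots were well above background. Both arrays lay on 1 slide and no spot was saturated. Both samples are male by the labels, but both probes of Xist gave signal above background in MHs alone, and 5 probes for 4 Y-linked genes gave it 0 times in MHs and 4 times in Sox9+EpCAM- cells. Sex, diet and the way of isolation therefore cannot be told apart in any difference below.

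The hepatocyte label was checked with marker genes. All 12 hepatocyte enzymes and all 11 secreted hepatocyte proteins that are not members, out of 12 listed, were well above background on both arrays. Sox9 was not well above background in MHs and had a relative signal of 0.0543 in Sox9+EpCAM- cells, at least 1.45-fold higher. The transcript of Epcam, by whose protein the cells were sorted as negative, had a relative signal of 0.188 in MHs and 2.496 in Sox9+EpCAM- cells, which is 13.3-fold higher.

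In Sox9+EpCAM- cells most complement and coagulation factors had somewhat lower signals than in MHs, few had much lower ones, and tissue factor (F3) was much higher. Of the 43, both arrays measured 41 well above background, Cfd passed that level in Sox9+EpCAM- cells only and F13a1 on neither array. Of the 42 with a difference, 39 were lower and 3 higher. Of 21875 genes of the array with a difference, 12090 were lower and 9785 higher. The median log2 difference (Sox9+EpCAM- minus MH) was -0.95 over the members and -0.12 over these genes. By scaling to Gapdh the split of members was 36 lower and 6 higher, and by quantile normalization it was 34 lower and 8 higher. Scaling to Gapdh used its brightest probe, with a log2 difference of -0.27, while its other probes lay between -0.26 and 0.80.

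Mbl2, Cfp, C9, C8b and Cpb2 were at least 4-fold lower, which is 5 of 42 members against 5.96% of all genes. F3 was at least 4-fold higher, which is 1 of 42 against 5.98%. At 2-fold, 21 of 42 members were lower, against 17.9% of all genes, and 1 was higher, against 15.2%. The remaining 20 members with a difference lay within 2-fold. This count moved with the scaling, to 13 members lower by quantile normalization, against 18.3% of all genes, and to 15 by scaling to Gapdh, against 13% of all genes. By scaling to Gapdh, 1006 genes of the array were at least 4-fold lower and 1650 higher, in place of 1304 and 1309, and 4 members were lower and 1 higher.

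**Figure D1:**
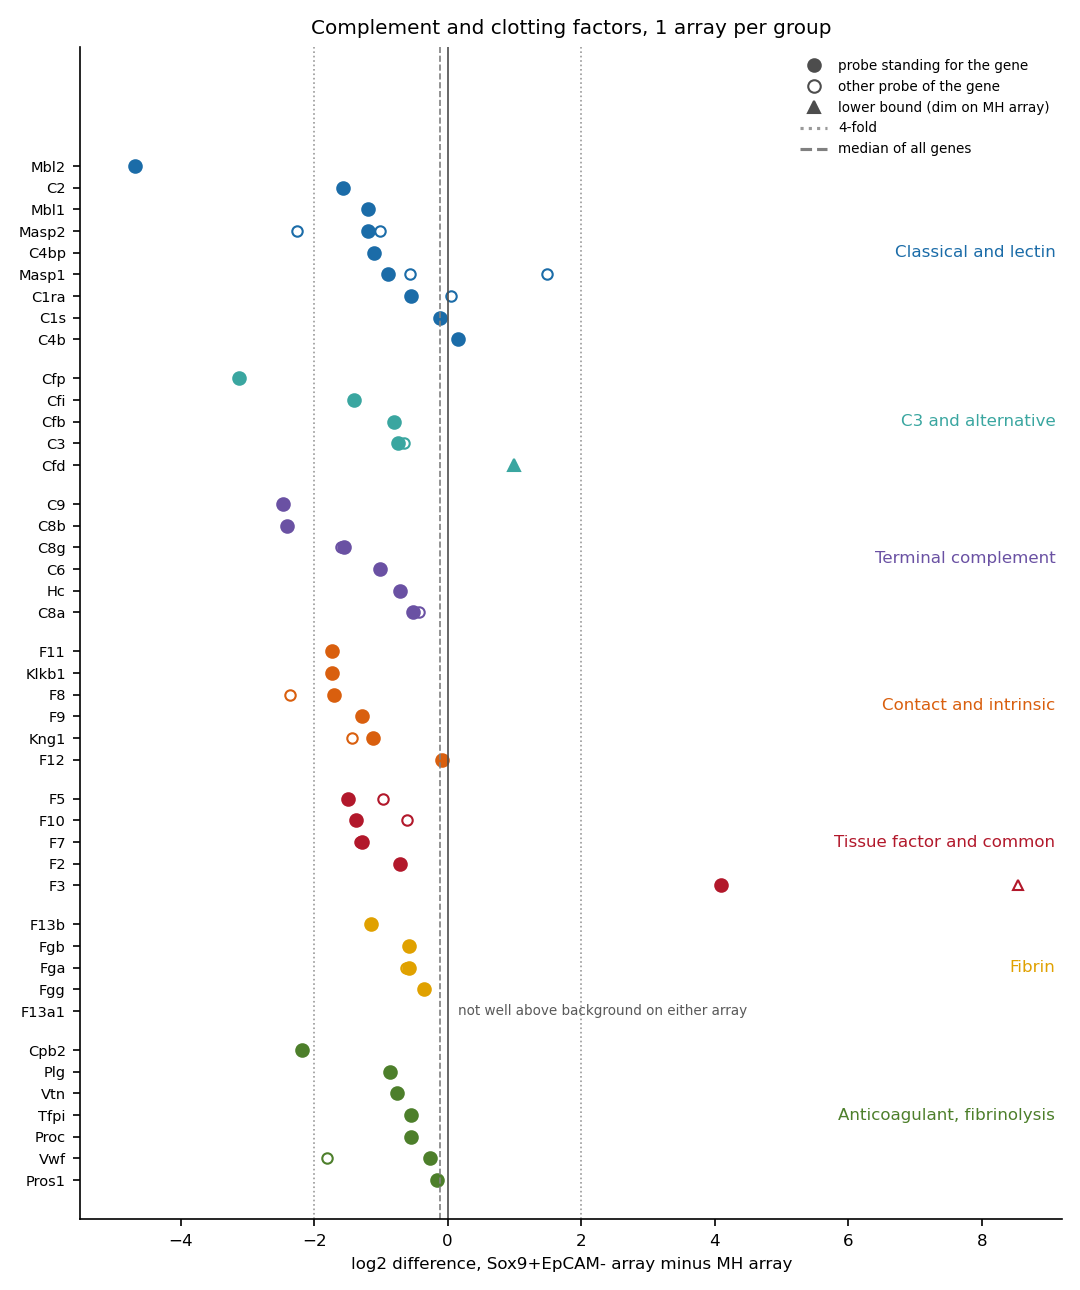
Log2 difference (Sox9+EpCAM- array minus MH array, 1 array per group) of each probe with a difference, for the 43 genes grouped by role; filled symbols are the probes that stand for a gene, open symbols other probes of it, and triangles lower bounds. Most filled symbols lie between the 4-fold line at -2 and 0, Mbl2 lies farthest left at -4.68 and F3 farthest right at 4.10.

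The brightness of a gene moved with its difference on these arrays. Of 2257 genes measured on both arrays with a geometric mean relative signal of 10 or more, 81.3% had the lower signal in Sox9+EpCAM- cells, and the median log2 difference was -0.42. All 25 members of that brightness were lower, with a median of -0.86, and 0 of them at least 4-fold, against 2.17% of all genes of that brightness. The mean is over both arrays, so a large decrease itself moves a gene out of this brightest group. Of 5903 genes with a mean relative signal of 1 to 10, 61.4% were lower, the median was -0.20 and 3.85% were at least 4-fold lower. The 11 members of that brightness had a median of -1.74, 9 were lower, and all 5 members at least 4-fold lower were among them. Of these, Mbl2, Cpb2 and C9 had more than 10 in MHs (32.9, 19.0 and 14.2), so their decrease itself placed them there. The 4-fold counts by brightness are therefore partly set by the grouping. Of 11072 genes with a mean relative signal under 1, 54.7% were lower, with a median of -0.11, and the 5 members there were all lower with a median of -1.02. Quantile normalization, which gives both arrays the same distribution, left a median of -0.72 over the 42 members. The part of brightness in the differences of members was not tested.

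**Figure D2:**
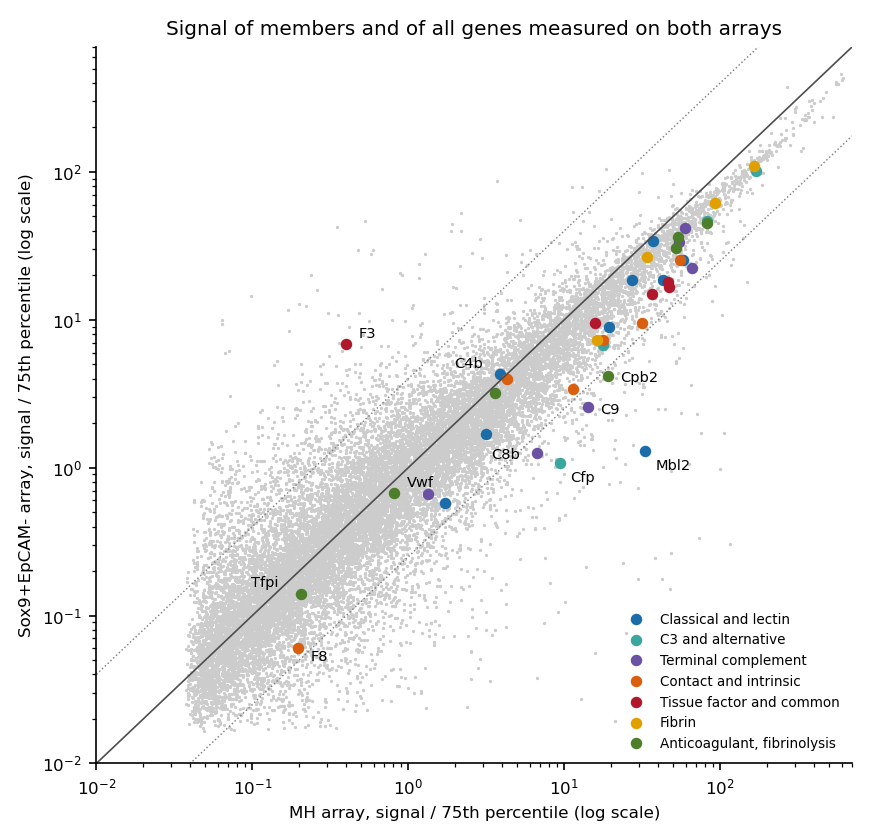
Relative signal (intensity divided by the 75th percentile of the array, log scales) in MHs and in Sox9+EpCAM- cells, for 19232 genes measured on both arrays (grey) and the 41 members measured on both (coloured by role); the solid line marks equal signal and the dotted lines a 4-fold difference. The bright members lie under the line of equal signal. Mbl2, Cfp, C9, C8b and Cpb2 lie beyond the lower 4-fold line and F3 beyond the upper one. Grey points of other genes lie beyond both lines too.

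The lectin pathway held the largest decrease. Mbl2 encodes mannose-binding lectin C, a plasma lectin that binds sugars of microbes and starts the lectin pathway. Its probe, at chr19:30314044-30314103 (mm9), had a relative signal of 32.9 in MHs and 1.29 in Sox9+EpCAM- cells, which is 25.6-fold lower. Its paralog Mbl1, which encodes mannose-binding lectin A, had 42.8 in MHs and 18.6 in Sox9+EpCAM- cells, 2.29-fold lower. Both genes were lower, and the log2 difference was -4.68 for Mbl2 and -1.20 for Mbl1. Over 10 alternative settings the log2 difference of Mbl2 lay between -4.85 and -4.41.

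The bases before these lectin genes are shown because the paralogs differed in size of change. In the RefSeq promoter table (GRCm38.p6), which holds 34 of the 43 members, the 250 bases before the start of Mbl1 are chr14:41151206-41151455 and those of Mbl2 are chr19:30232678-30232927, both on the plus strand. Capitals mark the longest stretch that both windows share, which is 13 bases long and begins 23 bases before the start of Mbl1 and 57 bases before that of Mbl2.
Mbl1: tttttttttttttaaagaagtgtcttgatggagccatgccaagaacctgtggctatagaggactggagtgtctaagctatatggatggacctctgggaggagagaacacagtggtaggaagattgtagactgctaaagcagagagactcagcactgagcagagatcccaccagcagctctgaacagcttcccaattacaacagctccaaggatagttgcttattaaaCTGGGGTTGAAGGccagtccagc
Mbl2: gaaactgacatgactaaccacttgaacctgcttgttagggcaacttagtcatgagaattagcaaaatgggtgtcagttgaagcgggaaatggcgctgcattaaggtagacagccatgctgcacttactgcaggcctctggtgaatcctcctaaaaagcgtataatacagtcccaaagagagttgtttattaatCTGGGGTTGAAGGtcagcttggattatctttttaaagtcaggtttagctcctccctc
The nuclear receptor element AGGTCA, searched on both strands, is in the window of Mbl2 and not in that of Mbl1. It is in the windows of 9 of 34 members (C3, C6, C8b, F10, F2, F5, F7, Fgg and Mbl2). Of all 32851 such windows, 14.0% hold it. A link of this element to the size of a change was not tested.

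The proteases that act with the lectins differed less than Mbl2. Masp2 encodes the protease that cleaves C4 and C2 for the lectins, and its brightest probe had a relative signal of 57.8 in MHs and 25.2 in Sox9+EpCAM- cells, 2.29-fold lower. The other probes of Masp2 were 4.80-fold and 2.02-fold lower, so all 3 had the same sign. Masp1 encodes the protease that activates Masp2, and its probes did not share a sign. The probe at chr16:23452460-23452519, the brightest, had 3.13 in MHs and 1.69 in Sox9+EpCAM- cells, 1.85-fold lower. The probe at chr16:23469978-23470037 had 0.972 and 2.71, 2.79-fold higher, and that at chr16:23449609-23449668 had 0.976 and 0.658, 1.48-fold lower. Masp1 is known for several transcripts that end differently, and the array lists a different transcript for each of these probes. Which ends the listed transcripts have was not determined, since no mm9 annotation was used here.

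Of the classical pathway genes, C1ra, C1s and C4b differed by less than 1.5-fold, while C2 and C4bp were more than 2-fold lower. C1ra and C1s encode the proteases C1r and C1s of the first complement component. The brighter probe of C1ra had 27.1 in MHs and 18.6 in Sox9+EpCAM- cells, 1.46-fold lower, and its other probe was 1.03-fold higher. C1s had 36.8 and 34.1, 1.08-fold lower, with the opposite sign by scaling to Gapdh and by quantile normalization. C4b, the gene of complement component C4, had 3.86 and 4.28, 1.11-fold higher, and was lower in the deposited table. These genes have close copies, and the probe of C4b also lists an accession of C4a, so its signal cannot be assigned to C4b alone. C2, whose protein is the protease that C4 binds, had 1.71 and 0.579, 2.96-fold lower. C4bp, whose protein helps to degrade C4, had 19.3 and 8.97, 2.15-fold lower. Of the 9 classical and lectin genes 8 were lower and 1 higher, with a median log2 difference of -1.10.

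C3 encodes the protein on which all complement routes meet. Its probe printed at 10 spots had a relative signal of 105 in MHs and 66.7 in Sox9+EpCAM- cells, with an SD between spots of 0.05 and 0.07 on the log2 scale. This probe was 1.57-fold lower and the other probe of C3 1.67-fold lower, and the SD covers the spots of 1 array and not animals. By quantile normalization the log2 difference of C3 was -0.14, in place of -0.74. Cfb, which encodes factor B, the protease of the alternative pathway, had 81.8 and 46.9, 1.74-fold lower. Cfi, which encodes factor I, the protease that inactivates C3b and C4b, had 17.8 and 6.74, 2.64-fold lower. The activator and the inhibitor of C3 cleavage were thus both lower.

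Cfp and Cfd, the other alternative pathway members, are known from cells other than hepatocytes. Cfp encodes properdin, which stabilises the C3 convertase and is made by leukocytes, and it had 9.37 in MHs and 1.07 in Sox9+EpCAM- cells, 8.74-fold lower. Of 14 leukocyte and macrophage markers 13 were lower and 8 at least 4-fold lower, from -6.43 for Clec4f to 3.85 for Cd68 on the log2 scale. Their summed relative signal was 170 in MHs and 92.5 in Sox9+EpCAM- cells, of which Itgam alone gave 124 and 76.3, and the Kupffer cell marker Vsig4 and the complement gene C1qc were not well above background in Sox9+EpCAM- cells. The part of these cells in the difference of Cfp was not tested, and in bulk RNA fewer cells of a type and less RNA per cell cannot be told apart. Cfd encodes factor D, the adipocyte protease that cleaves factor B, and its probe was not well above background in MHs (0.0414) and had 0.0821 in Sox9+EpCAM- cells, at least 1.98-fold higher. Normexp background correction brought this bound down to a log2 difference of 0.07. Of 4 adipocyte markers, Lep was not well above background on either array, and Adipoq, Plin1 and Retn had log2 differences of -1.10, 0.43 and -0.42.

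The 6 members that are components of the pore were lower, and by unequal amounts. C9, the protein that polymerises into the pore, had a relative signal of 14.2 in MHs and 2.56 in Sox9+EpCAM- cells, 5.54-fold lower. C8b, which encodes the beta chain of C8, had 6.67 and 1.26, 5.29-fold lower. Its neighbour C8a, with its probe 11.3 kb away on chromosome 4, encodes the alpha chain of the same protein and had 59.6 and 41.5, 1.44-fold lower. The gamma chain gene C8g lies on chromosome 2 and had 65.6 and 22.3, 2.95-fold lower, with 3.03-fold lower for its other probe. The chains of C8 thus differed from each other in the size of the decrease, with log2 differences of -0.52 for C8a, -1.56 for C8g and -2.40 for C8b. Hc, the gene of C5, had 54.8 and 33.4, 1.64-fold lower, and C6 had 1.34 and 0.662, 2.03-fold lower. C9 and C8b were at least 4-fold lower under each of the 10 alternative settings that kept this threshold.

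Tissue factor had the largest increase of the members. F3 encodes tissue factor, the membrane protein that binds factor VIIa and starts clotting, and it is made by perivascular and epithelial cells more than by hepatocytes. The probe with the highest mean log2 signal over both arrays, which stands for the gene, at chr3:121434609-121435346 (mm9), had a relative signal of 0.399 in MHs and 6.85 in Sox9+EpCAM- cells, which is 17.1-fold higher. The other probe, at chr3:121437717-121437776, was not well above background in MHs (0.0211) and had 14.0 in Sox9+EpCAM- cells, at least 372-fold higher. On the linear scale this other probe had the higher mean. Both probes showed F3 higher, and they differed at least 21.7-fold in how much. Over the alternatives that kept its first probe the log2 difference of F3 lay between 3.80 and 4.37, and with the other probe it was at least 8.54.

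Markers of other cell types moved with F3. Of 8 ductal markers 6 were higher and 2 of them at least 4-fold, Spp1 (121.6-fold) and Epcam, and their summed relative signal was 2.64 in MHs and 49.3 in Sox9+EpCAM- cells, of which Spp1 alone gave 0.348 and 42.3. Of 11 fibroblast and stellate markers with a difference 10 were higher and 6 at least 4-fold, from -2.95 for Lrat to 7.06 for Eln on the log2 scale, and the sum over the 12 listed was 12.9 and 55.3. Lum, Eln, Mgp and Pdgfrb were not well above background in MHs, and Pdgfrb and Lrat were not in Sox9+EpCAM- cells. The part of these cells in the difference of F3 was not tested.

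The bases before F3 are shown because F3 was the 1 member at least 4-fold higher. The 250 bases before its start are chr3:121723287-121723536 on the plus strand (RefSeq, GRCm38.p6). Capitals mark TGANTCA, the AP-1 site, and GGGCGG, the GC box bound by Sp1, each searched on both strands, and no marked stretch overlaps another.
F3: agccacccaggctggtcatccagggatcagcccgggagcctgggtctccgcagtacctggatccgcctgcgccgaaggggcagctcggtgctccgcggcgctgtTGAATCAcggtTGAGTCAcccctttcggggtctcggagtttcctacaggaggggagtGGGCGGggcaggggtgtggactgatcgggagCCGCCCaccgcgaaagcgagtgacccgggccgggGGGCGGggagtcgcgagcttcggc
The window holds 2 AP-1 sites, which begin 146 and 135 bases before the start, and 3 GC boxes, which begin 89, 58 and 24 bases before it. The AP-1 letters are in the windows of 4 of 34 members (C8g, F2, F3 and Fgb) and in 6.75% of all 32851 windows, and the GC box is in those of 4 of 34 members (F3, F5, Pros1 and Tfpi) and in 32.7% of all. G and C make up 70.0% of the window of F3, the highest share among the 34, whose median was 49.2% against 52.4% over all windows. A match of letters is a description and no sign that a factor binds there.

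The clotting proteases downstream of tissue factor were lower. F7, whose protein is the partner of tissue factor, had a relative signal of 36.4 in MHs and 15.0 in Sox9+EpCAM- cells, 2.44-fold lower, and its other probe, which overlaps it, was 2.47-fold lower. F10 encodes factor X, which tissue factor and factor VIIa activate, and it had 46.4 and 17.9, 2.59-fold lower. The other probe of F10 was 1.53-fold lower and shares up to 23 bases of a simple repeat with probes of other genes (agaaagaaagaaagaaagaaaga with that of Chat). Of all probes, 7.19% share at least 20 bases with a probe of another gene. F5, the cofactor of factor Xa, had 46.7 and 16.6, 2.82-fold lower. F2, which encodes prothrombin, had 15.7 and 9.55, 1.64-fold lower. The probes of F7 and F10 lie 20.4 kb apart on chromosome 8, and the log2 differences of -1.28 and -1.37 differed by 0.09.

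The contact and intrinsic factors had the lowest median of the role groups, with a log2 difference of -1.50 over 6 genes. These include the dim gene F8, at -1.71, which is described below. Without F8 the middle value is the -1.29 of F9. The terminal complement members had a median of -1.29 and the tissue factor and common clotting members one of -1.28, so this rank rests on F8. Klkb1, which encodes plasma prekallikrein, had 31.6 in MHs and 9.46 in Sox9+EpCAM- cells, 3.34-fold lower. F11, its paralog that encodes factor XI and has its probe 28.2 kb away on chromosome 8, had 11.4 and 3.42 and was likewise 3.34-fold lower. The pair of neighbours thus had the same log2 difference of -1.74. Kng1, which encodes the cofactor kininogen, had 54.9 and 25.2, 2.18-fold lower, and its probes also list accessions of Kng2, so that the signals of these genes cannot be told apart. F9, which encodes factor IX and is lost in haemophilia B, had 17.8 and 7.29, 2.44-fold lower. F12, which encodes factor XII and starts the contact route, had 4.26 and 4.01, 1.06-fold lower, and was higher by scaling to Gapdh and by quantile normalization.

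F8, which encodes factor VIII, the cofactor of factor IX that is lost in haemophilia A, is made in the liver by sinusoidal endothelial cells. Its probes were dim and both lower, from 0.196 to 0.0599 (3.27-fold) and from 0.238 to 0.0460 (5.16-fold). With the median of its probes F8 passed the 4-fold size, with a log2 difference of -2.04. Vwf encodes von Willebrand factor, the endothelial and platelet protein that carries factor VIII. The probes of Vwf went from 0.810 to 0.671 (1.21-fold lower) and from 0.430 to 0.123 (3.49-fold lower), so the size of its decrease depended on the probe. Tfpi, which encodes the endothelial inhibitor of tissue factor and factor VIIa, was measured by 1 of its 3 probes, from 0.206 to 0.141 (1.47-fold lower).

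All 10 endothelial markers with a difference were lower too, 6 of them at least 4-fold, from -3.55 for Clec4g to -0.05 for Emcn on the log2 scale (9 lower and 2 higher by scaling to Gapdh). The summed relative signal of the 12 listed was 9.63 in MHs and 2.78 in Sox9+EpCAM- cells, with Lyve1 not well above background on either array, Robo4 not in MHs and Cdh5 not in Sox9+EpCAM- cells. Of 7 platelet markers 4 were higher and 1 lower, from -0.42 for Treml1 to 1.28 for Pf4, with sums of 1.53 and 1.61, and Ppbp and Gp9 were not well above background on either array. The part of endothelial cells and platelets in the values of F8, Vwf and Tfpi was not tested. F13a1, which encodes the A chain of factor XIII made by macrophages and platelets, was not well above background on either array with both of its probes.

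**Figure D3:**
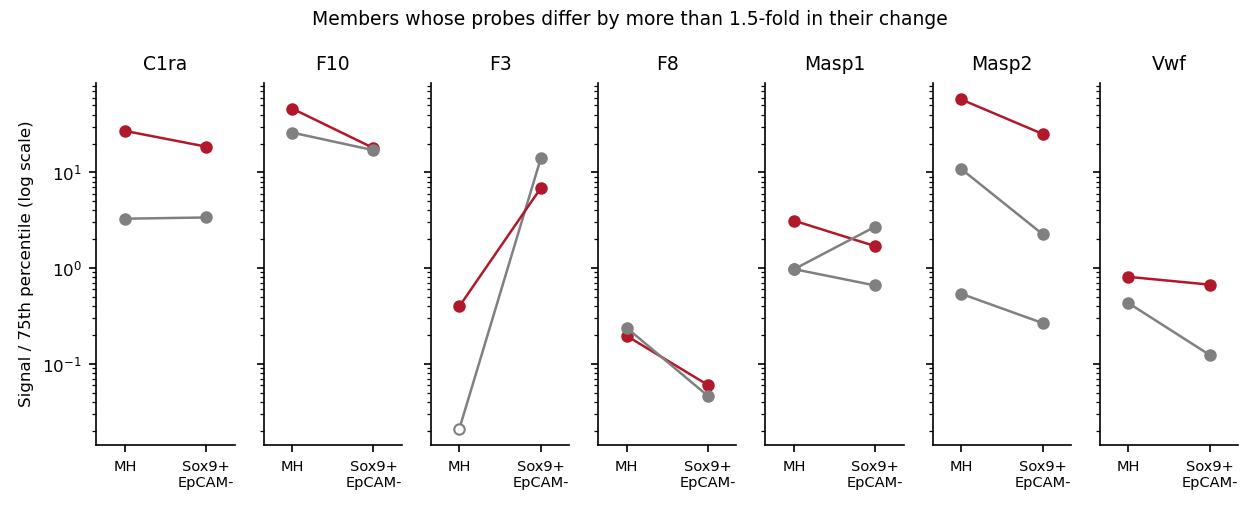
Relative signal (log scale) on the MH and Sox9+EpCAM- arrays of each probe of the 7 members whose probes differ by more than 1.5-fold in their change; red marks the probe that stands for the gene and an open symbol a signal not well above background. Both lines of F3 rise steeply, the lines of F8, Masp2 and Vwf run downwards with unequal slopes, and those of Masp1 cross.

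The probes of a gene were compared over all members with several probes. Of 14 members with at least 2 probes that had a difference, 7 had probes more than 1.5-fold apart, and C1ra and Masp1 had probes of both signs. Over 4916 genes of the array with at least 2 such probes, 63.4% had probes more than 1.5-fold apart and 41.5% had probes of both signs.

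The fibrinogen genes differed little between the arrays and by nearly equal amounts. The 3 chains are encoded by neighbouring genes on chromosome 3 that are known to be expressed together. Fga, the alpha chain, had a relative signal of 92.6 in MHs and 62.0 in Sox9+EpCAM- cells, 1.49-fold lower. Fgb, the beta chain, had 165 and 109.9, 1.498-fold lower, and Fgg, the gamma chain, had 34.1 and 26.8, 1.28-fold lower. The log2 differences of Fga and Fgb differed by 0.004, and that of Fgg lay 0.23 above them. Fgb and Fgg were slightly higher by quantile normalization, at log2 differences of 0.02 and 0.09. F13b, which encodes the carrier chain of factor XIII, lies on chromosome 1 and had 16.3 and 7.35, 2.22-fold lower, over 9 spots with an SD of 0.04 and 0.05 on the log2 scale.

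The bases before Fga and Fgb are shown because these genes had nearly the same difference. They are chr3:83025903-83026152 on the plus strand for Fga and chr3:83049864-83050113 on the minus strand for Fgb (RefSeq, GRCm38.p6, each read along its gene). Capitals mark GTTAAT, the core of the HNF1 site, and TTCNNNGAA, the STAT site, both searched on each strand and without overlap.
Fga: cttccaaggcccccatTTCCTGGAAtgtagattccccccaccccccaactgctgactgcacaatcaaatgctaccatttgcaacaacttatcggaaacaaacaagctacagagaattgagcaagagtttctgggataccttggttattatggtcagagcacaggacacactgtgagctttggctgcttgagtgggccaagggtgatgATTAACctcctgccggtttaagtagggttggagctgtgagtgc
Fgb: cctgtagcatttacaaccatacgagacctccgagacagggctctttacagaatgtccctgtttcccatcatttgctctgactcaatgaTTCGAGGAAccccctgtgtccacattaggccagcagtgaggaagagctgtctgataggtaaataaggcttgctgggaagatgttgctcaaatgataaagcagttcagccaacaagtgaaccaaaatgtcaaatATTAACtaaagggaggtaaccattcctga
Each window holds 1 HNF1 core, written here as its reverse complement ATTAAC, which begins 43 bases before the start of Fga and 29 bases before that of Fgb. Each also holds 1 STAT site, which begins 234 bases before the start of Fga and 162 bases before that of Fgb. The HNF1 core is in the windows of 10 of 34 members and in 6.43% of all windows, and the STAT site in those of 6 of 34 members and in 7.02% of all. That of Fgg holds neither.

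Of the members that act on clots once formed or limit them, Plg, Proc and Pros1 were within 2-fold and Cpb2 was at least 4-fold lower. Plg, which encodes plasminogen, had 82.1 in MHs and 45.2 in Sox9+EpCAM- cells, 1.81-fold lower. Proc, which encodes the anticoagulant protein C, had 53.3 and 36.6, 1.46-fold lower. Pros1, which encodes its cofactor protein S, had 3.59 and 3.21, 1.12-fold lower, and was higher by scaling to Gapdh and by quantile normalization. Cpb2, which encodes the carboxypeptidase that protects fibrin from plasmin, had 19.0 and 4.18, 4.55-fold lower. By scaling to Gapdh and by quantile normalization the log2 difference of Cpb2 was -1.92 and -1.84, under the 4-fold size. Vtn, which encodes the adhesion protein vitronectin, had 52.1 and 30.7, 1.70-fold lower, over 10 spots with an SD of 0.04 and 0.05 on the log2 scale.

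All 6 members that need vitamin K for gamma-carboxylation (F2, F7, F9, F10, Proc and Pros1) were lower, with a median log2 difference of -0.999 (5 lower and 1 higher by scaling to Gapdh or quantile normalization), and 0 of them were at least 4-fold lower. Ggcx, the carboxylase that modifies them, had 5.21 and 1.25, 4.16-fold lower. Vkorc1, the reductase that recycles vitamin K, had 17.9 and 14.5, 1.24-fold lower, and its paralog Vkorc1l1 had 0.753 and 1.75, 2.32-fold higher. The enzymes and their substrates were thus not lower by a common amount.

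Neighbouring members were compared in pairs. Of 8 pairs whose probes lie within 100 kb, F11 with Klkb1, Fga with Fgb and F7 with F10 differed by at most 0.09 on the log2 scale. C1ra and C1s, with probes 8.0 kb apart, differed by 0.44, C2 and Cfb, with probes 5.7 kb apart, by 0.76, and C8a and C8b by 1.88.

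Other genes of these pathways were read from lists that hold no member. Of 26 other complement genes listed 24 are on the array and 20 had a difference, of which 16 were lower, with a median log2 difference of -0.77, and 5 were at least 4-fold lower. These were Vsig4 (at least 29.96-fold), Fcna (8.51-fold), C1qb (6.89-fold), C1qc (at least 6.76-fold) and C3ar1 (4.07-fold), and Vsig4, C1qb and C1qc are also in the leukocyte list above. C7, the pore component that is no member, had 0.219 in MHs and 0.883 in Sox9+EpCAM- cells, 4.04-fold higher, in contrast to the 6 terminal members. C1rb, the close copy of C1ra, was 1.88-fold lower. By scaling to Gapdh the log2 difference of C3ar1 was -1.76, under the 4-fold size, and by normexp C3ar1 (-1.53), C1qc (-1.57), Fcna (-1.67) and C7 (1.64) were under it. C7 was also under it by quantile normalization (1.93), in the deposited table (1.84) and, just, by scaling to probes above background on both arrays.

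Of 26 other clotting genes listed 25 are on the array and 21 had a difference, of which 11 were lower and 10 higher with a median of -0.31, and 4 were at least 4-fold higher and 1 lower. By quantile normalization the split was 9 lower and 12 higher. Plat, which encodes tissue plasminogen activator, was not well above background in MHs and had 5.50 in Sox9+EpCAM- cells, at least 146.5-fold higher. F2r and F2rl1, the genes of the protease-activated receptors that sense thrombin and the tissue factor complex, were at least 20.6-fold and 11.2-fold higher, with 0.774 and 0.419 in Sox9+EpCAM- cells. Anxa2, a plasminogen receptor, was at least 10.1-fold higher. Ggcx, described above, was the 1 gene of the 21 at least 4-fold lower, and by scaling to Gapdh, quantile normalization and normexp its log2 difference was -1.79, -1.88 and -1.99, under that size. Anxa2 was under it by normexp (1.98).

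**Figure D4:**
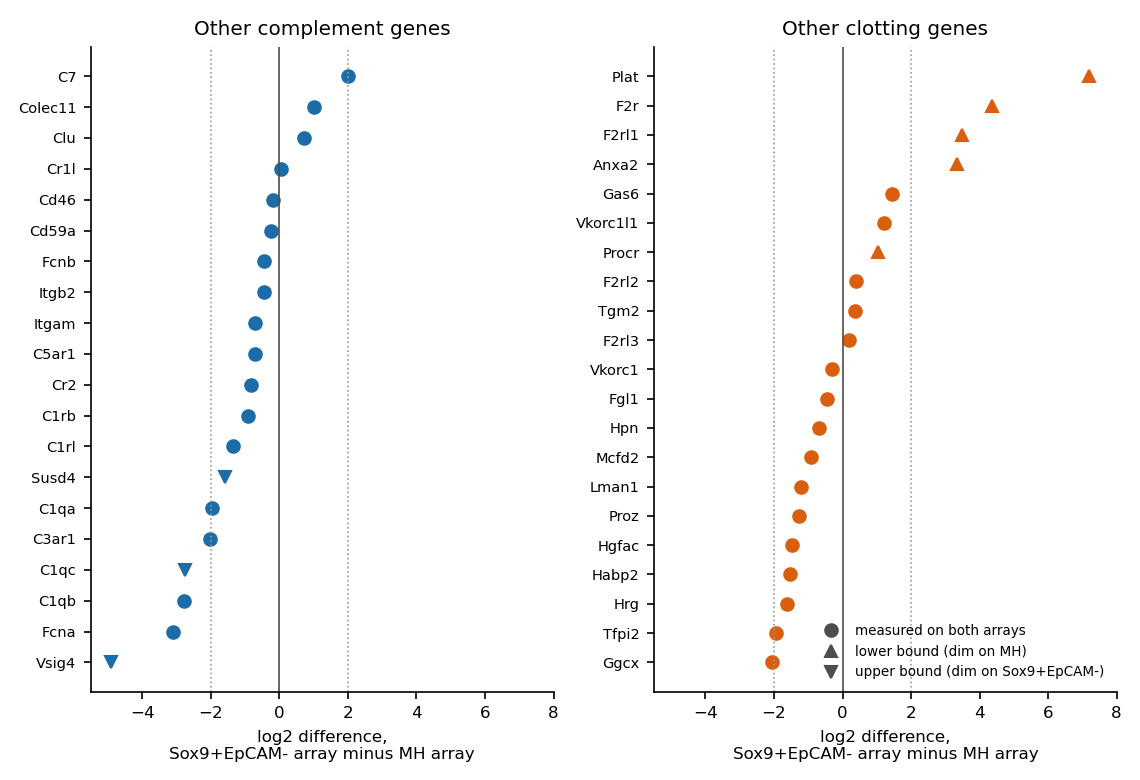
Log2 difference (Sox9+EpCAM- array minus MH array, 1 array per group) of the 20 other complement and 21 other clotting and fibrinolysis genes with a difference; upward triangles are lower bounds and downward triangles upper bounds. Complement genes lie mostly left of 0 down to Vsig4, while Plat, F2r, F2rl1 and Anxa2 lie right of the 4-fold line.

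The median of the members made by hepatocytes lay nearer to that of other secreted hepatocyte proteins than to that of hepatocyte enzymes. The 36 members made mainly by hepatocytes had a median log2 difference of -1.06, with 35 lower and 4 at least 4-fold lower. The 11 other secreted proteins, among them albumin (Alb, 1.82-fold lower) and transthyretin (Ttr, 2.02-fold lower), had a median of -0.82 and ranged from -1.51 for Apoc3 to -0.22 for Hpx, and 0 were at least 4-fold lower. The 12 hepatocyte enzymes had a median of -2.21, with all lower and 6 at least 4-fold lower, from -8.58 for Cyp3a11 to -0.70 for Pck1. Whether the lists differ from each other could not be tested with 1 array a group.

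**Figure D5:**
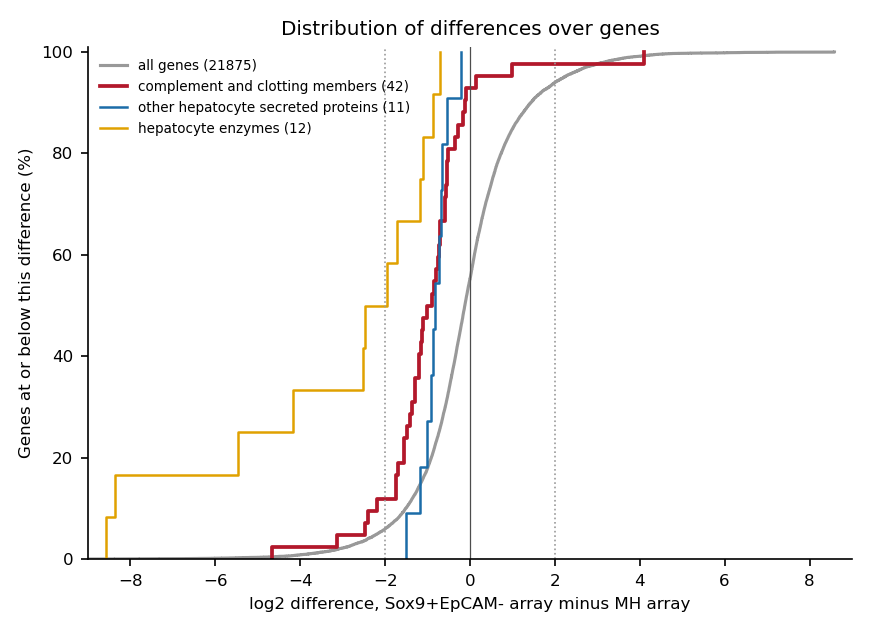
Share of genes (%) at or below each log2 difference (Sox9+EpCAM- array minus MH array) for all genes, the 42 members, 11 other secreted hepatocyte proteins and 12 hepatocyte enzymes. The curve of the members lies left of that of all genes over most of its height and near that of the other secreted proteins, and the enzymes reach -8.58.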

How the data were processed

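The arrays are Agilent mouse arrays with probes of 60 bases. Per spot, the authors deposited the background-subtracted intensity of Feature Extraction 10.7.3.1, without normalization between arrays, and a table of ratio values, each the intensity over its array's median (found by comparison with the scanner values). Labelling followed an undisclosed protocol of a service provider. Probe coordinates are mm9.

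Each intensity was divided by the 75th percentile over its array, and log2 values were used. Spots that are controls or carry an outlier mark were dropped, and the spots of a probe averaged. The probe with the highest mean log2 value over both arrays stands for a gene. Where a probe was not well above background on 1 array, its difference is a bound, computed with the lowest signal that is well above background there or with the probe's own where that is higher. This lowest intensity was 27.8 for MHs and 18.4 for Sox9+EpCAM- cells, and the median SD between spots of probes printed at least 8 times was 0.08 on the log2 scale on each. Members, gene lists and motifs were chosen with earlier results of these data known, and every member is named. Other genes of the pathways are named where at least 4-fold different or next to a member in pathway or genome. Of the complement list, 1 gene is not reported here and was left out of its counts. C1s is a synonym of C1s1 in RefSeq, and the other 42 names are current. Alternatives were normexp (limma 3.58.1, R 4.3.3, offset 50), other scalings, probe rules, outlier and background rules and folds of 2 and 10. Python 3.11.15, pandas 2.3.3 and numpy 2.4.6 served for the rest, and the procedure was tested on simulated data.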

Additional observations from a re-analysis of the deposited data

How the results depend on the processing

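With 1 array a group there was no replicate to leave out, and no fit with the slide as a block. No paired analysis was possible because the groups hold 1 array each. Of 12 alternatives, only the fold thresholds moved the number of members called lower by more than 1.5 times, to 21 at 2-fold and 1 at 10-fold. Under the others it was 4 to 6, and 1 member was higher under all 12. The 2-fold counts under other scalings and the alternatives for the other pathway genes were added after seeing the data, and 13 members were lower by quantile normalization and 2 higher by scaling to Gapdh. The median member difference lay between -1.13 (deposited table) and -0.69 (scaling to Gapdh). The median over genes measured on both arrays moved by 0.27 with scaling to Gapdh and by -0.18 with the deposited table. Over all genes, normexp left 660 at least 4-fold lower and 612 higher, and the genes measured on both arrays alone gave 914 and 758, in place of 1304 and 1309. Of 419 log2 differences of members under alternatives, 10 moved by more than 1.5-fold. These were Cfd under normexp, C3 (-0.14) and Fgb under quantile normalization, F3 (at least 6.32) and Vwf (-1.04) with the median of probes, and C1ra, F3, F8, F10 and Vwf with the dimmest probe. 35 of 42 members kept their sign under all that were run. Dim members (Cfd, F8, Tfpi and Vwf) are limited by the signal over background.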
